A study of Homo sapiens with 4 samples.

Results

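The lipid-building enzymes of a metabolic knockout library were followed through oxaliplatin treatment of the established human colon carcinoma line HCT116. Members were chosen by gene symbol, as enzymes of glycerolipid, phospholipid and sphingolipid synthesis, and came to 296 of the 7142 sgRNAs in the count table (4.14%). They target 74 of the 1773 genes that carry 4 sgRNAs each, and were set in 8 branches by the reaction their enzymes catalyse. An sgRNA guides Cas9 to cut its gene, and its level in the harvested DNA tracks how many cells with that knockout are left. Lentivirus carried the library into the cells at few copies per cell, and after puromycin selection they were split 4 ways. 1 portion received PBS and 3 received oxaliplatin, a DNA-crosslinking platinum drug, at 10 µM, and the survivors were harvested after 7 days. No library from before the treatment was analysed here, so that a low abundance in any library cannot be told apart from few copies at the start. All 4 portions came from the same transduced pool of 1 cell line, and the sources used here do not say whether the oxaliplatin portions were kept as separate cultures beyond that division. P-values therefore measure only the spread between these libraries.

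Glycerolipids are built by adding fatty acyl chains to glycerol 3-phosphate. Phosphatidate, the product of the first acylations, stands at a branch point. Lipins remove its phosphate to give diacylglycerol, from which triacylglycerol, phosphatidylcholine and phosphatidylethanolamine are made, while CDP-diacylglycerol synthases activate it for phosphatidylinositol and the mitochondrial lipid cardiolipin. Diacylglycerol kinases run the phosphatase step backwards. Sphingolipids start from serine and palmitoyl-CoA and pass through ceramide, which is turned into sphingomyelin or glycosphingolipids or broken down to sphingosine and sphingosine 1-phosphate. Ceramide and sphingosine 1-phosphate are also signals, known for opposite roles in cell death and survival. Many of these steps are shared by several isoenzymes, while a few rest on 1 gene.

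The control, labelled PBS, held 8934799 counts, and oxaliplatin replicates 1, 2 and 3 held 27563013, 10494731 and 11146921. Members held 3.57% of the counts in the PBS library and 3.91%, 3.43% and 3.52% in the oxaliplatin libraries. In the PBS library, 66 of the 296 members had 0 counts (22.3%, 95% exact binomial interval 17.7 to 27.5), against 19.0% of all sgRNAs. The same was true of 13 members (4.39%, interval 2.36 to 7.39) in oxaliplatin replicate 1, of 1 (0.338%, interval 0.00855 to 1.87) in replicate 2 and of 0 in replicate 3, which allows a share of up to 1.24%. Of all sgRNAs, 2.30%, 0.308% and 0.0280% had 0 counts in replicates 1, 2 and 3. The control therefore missed more members than any treated library did. Across members, log2 of CPM plus 1 (CPM is the count scaled to the library total) correlated at r = 0.962 between oxaliplatin replicates 2 and 3, at 0.653 and 0.670 between replicate 1 and these 2, and at 0.396, 0.516 and 0.527 between the PBS library and replicates 1, 2 and 3. In replicate 1 the 10 most abundant members held 45.9% of all member counts, against 19.0%, 18.8% and 16.7% in the PBS library and replicates 2 and 3. Replicate 1 thus stood apart from the other treated libraries, and results are given per library for that reason.

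Single sgRNAs were tested with edgeR, with the lone control assumed to vary like the treated libraries. With oxaliplatin, 24 of the 296 members were higher at an adjusted p under 0.05 (8.11%), where 8.35% of all 7111 sgRNAs tested were called higher. None of the members was called lower, and 0% of all sgRNAs were, although 4 members and 103 of all sgRNAs had an unadjusted p under 0.05 in that direction. DESeq2 called 92 members higher (31.1%, against 28.5% of all) and 1 lower (0.338%, against 0.408%). The share of members called higher was thus near that of the whole library with either tool. The control had 8 counts or fewer for each of the 24, and 0 for 12 of them. All 24 thus passed the minimum for testing, 10 counts in at least 1 library, only through the treated libraries. They lay on 20 genes, and DGKQ, GPAT4 and ETNK1 were the only genes with more than 1. The calls were lost with another scaling: with total counts in place of TMM factors 0 members were called higher. On counts summed over the 4 sgRNAs of a gene, edgeR called 0% of the 1773 genes higher and 0% lower, members included, while 76 genes (2 members) were higher and 33 (2 members) lower at an unadjusted p under 0.05. DESeq2 called 111 genes higher (6.26%), with DGKQ and AGPAT4 the 2 members among them (2.70% of the 74), and 34 lower (1.92%), with UGT8 the 1 member (1.35%). With 1 control library no exact permutation test can give a two-sided p below 0.25, so none is reported.

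Fold changes are given on the log2 scale as oxaliplatin over PBS, after median-ratio scaling and with a pseudocount of 1, so that a positive value means more of the knockout with the drug. The study's own table counts in the opposite direction. A ratio of treated to control counts of 1.65, 1.25 and 1.42 stood for no change in oxaliplatin replicates 1, 2 and 3, so that counts printed below are read against these. Scaled to library totals, the median gene, summed over its sgRNAs, had 454 CPM in the control and 240, 427 and 454 with oxaliplatin. Levels in CPM, above all those of replicate 1, are read against that background. The value of a gene is the median over its sgRNAs. A figure after ± is the SD over the 3 oxaliplatin libraries. These share 1 control, so the SD leaves out the error of the control, also where that held few counts. The median over the 74 member genes of the mean over libraries was 0.47, or 0.26 above the median of all 1773 genes, which stood at 0.20. These medians followed the number of sgRNAs that were nearly missing from the control. The 20 member genes with no sgRNA under 3 counts in the PBS library had a median of -0.24, the 28 with 1 such sgRNA 0.05, the 19 with 2 such sgRNAs 2.41 and the 7 with 3 or more 5.49. All genes of the library showed the same steps, at -0.78, -0.11, 2.87 and 5.87. For this reason each branch was also described by its sgRNAs with 100 or more control counts, called well counted below, of which members held 187. Choosing sgRNAs by their control count lowers their fold changes, so these were set against the median of all 4859 well-counted sgRNAs in each library.

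More than 4-fold below that median were 54 of the 187 well-counted members in oxaliplatin replicate 1, 23 in replicate 2 and 11 in replicate 3. These are 28.9%, 12.3% and 5.88%, beside 25.7%, 9.14% and 3.93% of all well-counted sgRNAs. More than 4-fold above it were 50 (26.7%), 15 (8.02%) and 7 (3.74%), beside 23.2%, 7.00% and 4.65%. In all 3 libraries 9 members were more than 4-fold lower (4.81%, against 2.20% of all) and 2 were more than 4-fold higher (1.07%, against 2.41%). The 9 lower sgRNAs belonged to MBOAT2, PGS1, CERS3, SGMS1, ASAH1, CERS6, DGKG, CEPT1 and SPTLC3, with 1 for each gene, and the 2 higher ones to DGAT2 and MOGAT2. No gene had more than 1 such sgRNA, although further well-counted sgRNAs of MBOAT2, CERS3, SGMS1, PGS1 and SPTLC3 were also below the median in every library. The lowest of these in MBOAT2, CERS3 and SGMS1 stood at -1.86, -3.15 and -3.27 for MBOAT2 (sgRNA_6317), at -1.89, -2.48 and -1.88 for CERS3 (sgRNA_6648) and at -3.42, -1.16 and -1.07 for SGMS1 (sgRNA_6742).

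The first acylations are made by glycerol-3-phosphate acyltransferases (GPAM, GPAT3, GPAT4) and lysophosphatidate acyltransferases (AGPAT1 to AGPAT5). Over these 8 genes the median fold change was 1.56 above that of all genes, and 1.62, 1.55 and 1.21 above it in oxaliplatin replicates 1, 2 and 3. It was 0.13 above with well-counted sgRNAs alone and 0.068 above with counts summed per gene. Of its 32 sgRNAs 5 were called higher (15.6%, against 8.35% of all), 2 of GPAT4 (gene value 2.58 ± 0.56) and 1 each of GPAM, AGPAT1 and AGPAT4. Without oxaliplatin replicate 3 it had 1 call (3.23%, against 4.89% of all). Each of the 5 had 6 counts or fewer in the control, and so was tested only because of its treated counts. AGPAT1 had the highest value of the branch, 6.10 ± 1.79 (SD over 3 libraries), and 3 of its sgRNAs had 0, 1 and 3 counts in the PBS library. Its best counted sgRNA, sgRNA_3815, went from 3755 counts there to 1126, 5694 and 5057. GPAM, the mitochondrial isoenzyme, stood at 5.77 ± 0.94 in the same way, with 3 sgRNAs at 0 in the control, while its only other sgRNA had 1555 counts in the PBS library and 999, 1506 and 1357 with oxaliplatin. In these genes the high value came from the sgRNAs that the control lacked. GPAT4 had 2 well-counted sgRNAs, and both were below the median well-counted sgRNA in every library. They went from 563 counts to 94, 79 and 251 and from 795 to 191, 267 and 545.

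AGPAT4 and AGPAT2 were the 2 genes of this branch whose summed counts were also above the control in every library. The 4 sgRNAs of AGPAT4 together made up 72.9 CPM in the PBS library and 239, 687 and 598 in oxaliplatin replicates 1, 2 and 3, so that the control lay below all treated libraries. The sgRNA that was called, sgRNA_5189, had 6 counts in the control and 2759, 3944 and 4188 with the drug (edgeR adjusted p = 0.041). A second one, sgRNA_5190, had 61 counts against 1015, 2893 and 2003, while sgRNA_5192 had 103 against 72, 49 and 74. On summed counts the edgeR log2 fold change was 3.04, with an adjusted p of 0.516. In AGPAT2, the isoenzyme known from fat tissue, sgRNA_3820 had 2 counts in the PBS library and 67433, 4482 and 6897 with oxaliplatin, the third most abundant member in replicates 1 and 3. AGPAT2 as a gene stood at 1.32 ± 0.29, and its summed level was 456 CPM against 2923, 1205 and 1294. AGPAT3 had the same kind of sgRNA, sgRNA_5188, with 3 counts against 63251, 2985 and 3288, but a gene value of -0.21 ± 0.95. Its sgRNA_5186 was the third most abundant member of replicate 2, with 3597 counts in the control and 790, 6550 and 3898 with the drug. The lowest value was that of AGPAT5, at -1.04 ± 0.39, below the median of all genes in each library.

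Lysophospholipid acyltransferases (LPCAT, LPGAT and MBOAT genes) re-acylate lysophospholipids and so set the fatty acids of finished membranes. The median of the 9 genes was 0.24 above that of all genes, and 0.64, 0.40 and -0.016 relative to it in oxaliplatin replicates 1, 2 and 3. Only 1 sgRNA was called higher, of MBOAT4, the enzyme that acylates the peptide ghrelin and not a phospholipid, with 1 count in the control and 2776, 1224 and 1952 with the drug. MBOAT1 and MBOAT7, the latter specific for lysophosphatidylinositol, had the highest values, 5.91 ± 0.67 and 4.22 ± 0.84. In the control MBOAT1 had 3 sgRNAs under 3 counts and MBOAT7 had 2 at 0. The well-counted sgRNA of MBOAT1, sgRNA_6497, went from 1270 counts to 737, 2257 and 1706. The best counted sgRNA of MBOAT7, sgRNA_5535, went from 1202 counts to 3025, 3528 and 3371, which is 0.61, 1.23 and 0.99 on the log2 scale but lower in replicate 1 when scaled to library totals (135 CPM against 110). LPCAT1 was lowest at -0.51 ± 0.36, and LPCAT3 followed at -0.27 ± 1.02, although its sgRNA_3722 was the second most abundant member of replicate 3 (5013 counts in the control, 28725, 5332 and 7955 with the drug). MBOAT2 split. Its sgRNA_6320 went from 270 counts to 0, 0 and 49 and was the lowest of the well-counted members, and sgRNA_6317 went from 238 to 39, 19 and 21, whereas sgRNA_6318 went from 0 to 28, 833 and 432. The 4 sgRNAs of 1 gene thus gave opposite readings. Among well-counted members sgRNA_6708 of LPCAT4 was the third highest, with 562 counts in the control and 18189, 1865 and 1915 with oxaliplatin.

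Lipins (LPIN1 to LPIN3) take phosphatidate to diacylglycerol, and DGAT and MOGAT enzymes acylate di- and monoacylglycerol on the way to stored fat. The median of these 9 genes was 0.66 above that of all genes, at 1.29, 0.31 and 0.60 in the 3 oxaliplatin libraries. It was 1.10 without replicate 2, 0.34 with summed counts and 0.30 with well-counted sgRNAs. Both triacylglycerol-forming enzymes had positive gene values. DGAT1 stood at 3.30 ± 0.07, the smallest spread among the 74 genes, and DGAT2 at 0.69 ± 0.22. The called sgRNA of DGAT1, sgRNA_3344, went from 5 counts to 1309, 3307 and 2121 (edgeR adjusted p = 0.041), and another, sgRNA_3343, from 4 to 197, 1140 and 1278. Its 2 well-counted sgRNAs differed. Of these sgRNA_3341 had 1581 counts in the control and 693, 804 and 1101 with the drug, while sgRNA_3342 had 2166 against 12313, 1449 and 1722 and so was higher in replicate 1 alone. In DGAT2 a well-counted sgRNA was high in every treated library, sgRNA_5954, with 1157 counts against 10341, 5090 and 4973. It was 3.86, 2.56 and 2.26 above the median well-counted sgRNA, and no other well-counted sgRNA of the gene was more than 4-fold above it in any library. The best counted sgRNA of DGAT2, sgRNA_5955, went the other way, from 3025 counts to 204, 1175 and 1361, below that median in every library.

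MOGAT2, an intestinal monoacylglycerol acyltransferase, held the well-counted member with the largest gain, sgRNA_5743. It had 548 counts in the PBS library and 53680, 2760 and 4760 with oxaliplatin, 7.32, 2.75 and 3.28 above the median well-counted sgRNA. A further 2 sgRNAs of MOGAT2 went from 1253 to 959, 839 and 911 and from 2017 to 1201, 1033 and 1140, and the gene value was 0.09 ± 1.05. MOGAT3 had the highest gene value of the branch, 5.45 ± 2.15, from sgRNAs with 1, 3 and 43 counts in the control. LPIN2 reached 0.86 ± 1.27 and its sgRNA_3632 went from 632 counts to 15282, 2708 and 2260. LPIN1 stood at 1.98 ± 0.66, although its sgRNA_4105 went the other way, from 381 counts to 3, 28 and 97. MOGAT1 was lowest in the branch at -0.27 ± 0.23. Apart from DGAT1, DGAT2L6, LPIN3 and MOGAT3, with 1 sgRNA each, no gene of the branch had a call.

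Diacylglycerol kinases phosphorylate diacylglycerol, ending its signal to protein kinase C. They held the most calls, 7 of 40 sgRNAs on 5 of 10 genes (17.5%, against 8.35% of all sgRNAs). Without replicate 3 they had 2 (5.00%, against 4.89%). Each of the 7 had 4 counts or fewer in the control, and so was tested only because of its treated counts. DGKQ accounted for 3 of the 7. Its sgRNA_908 had 1 count in the PBS library and 2785, 2725 and 2779 with oxaliplatin, a scaled ratio of 1684 (95% exact interval 302 to 66520), 2183 (392 to 86270) and 1962 (352 to 77537), where the interval covers counting error only. The called sgRNA_905 went from 4 counts to 1543, 2631 and 3477, and sgRNA_907 from 0 to 373, 245 and 439, at least 75.2-fold, 65.4-fold and 103-fold higher against a floor of 3 counts per library. The last, sgRNA_906, had 398 counts in the control and 979, 1049 and 1254 with the drug, and was 2.00, 1.82 and 1.81 above the median well-counted sgRNA. After median-ratio scaling all 4 sgRNAs of DGKQ were thus higher in every oxaliplatin library, but scaled to library totals sgRNA_906 was lower in replicate 1 (44.5 CPM against 35.5). The gene value, 8.32 ± 0.42, was the highest of the 74, and the summed level went from 45.1 CPM to 206, 634 and 713. On summed counts DGKQ had the lowest p of any member, with an edgeR log2 fold change of 3.73 and an adjusted p of 0.476, past no threshold.

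No other kinase had all 4 sgRNAs higher in this way. DGKI, second at 6.66 ± 0.81, had 3 sgRNAs at 0 in the control, and its remaining sgRNA had 1348 counts there and 1637, 472 and 979 with the drug. DGKE, DGKK and DGKB had 1 called sgRNA each, and sgRNA_3256 of DGKE went from 2 counts to 1827, 4053 and 3198. DGKA and DGKG were lowest, at -0.68 ± 0.80 and -0.66 ± 0.22. In DGKG, sgRNA_901 had 2062 counts in the PBS library and 68, 299 and 312 with oxaliplatin, an edgeR log2 fold change of -3.18 with an unadjusted p of 0.021 and an adjusted p of 0.107. The remaining 3 sgRNAs of DGKG stood 0.20, 0.38 and 1.49 above the median well-counted sgRNA in the mean over libraries. The highest of these, sgRNA_902, had 1249 counts against 3062, 2491 and 2315, and was above that median in every library. Over the 10 kinases the median was 0.22 above that of all genes, and -0.0024, 0.11 and 0.55 relative to it in replicates 1, 2 and 3, and it was 0.038 above without replicate 3.

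The choline and ethanolamine branch (the Kennedy pathway and PEMT, which methylates phosphatidylethanolamine to phosphatidylcholine) had the highest median, 2.00 above all genes, at 1.66, 1.81 and 2.51 in the 3 libraries. It was 0.82 with a pseudocount of 10, 0.26 with summed counts and 0.14 with well-counted sgRNAs. Ethanolamine kinase ETNK1 was highest at 4.32 ± 0.54 and had 2 of the 3 calls, sgRNA_5047 from 0 to 362, 289 and 268 counts and sgRNA_5045 from 3 to 431, 680 and 995. The only well-counted sgRNA of ETNK1, sgRNA_5048, went from 6095 counts to 32629, 4041 and 3637, and so was higher in replicate 1 alone. The third call was sgRNA_5231 of the cholinephosphotransferase CHPT1, from 8 counts to 744, 1917 and 1413. CHPT1 as a gene was nevertheless the lowest of the branch at -0.86 ± 0.10, and its best counted sgRNA, the most abundant member of the control with 7632 counts, had 4774, 5435 and 5313 with the drug. Set against the median well-counted sgRNA, however, the well-counted sgRNAs of CHPT1 stood at -0.89, -0.14 and -0.13 in the mean over libraries. The last is that of the best counted sgRNA. Choline kinase CHKA stood at 3.72 ± 0.51, with sgRNAs at 0 and 2 counts in the control and 2 well-counted ones at 2681 against 3285, 2534 and 3342 and at 5613 against 1294, 3203 and 2506.

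The PCYT enzymes, which activate choline and ethanolamine with CTP, gave no common direction. PCYT1A, for choline, stood at 2.20 ± 0.48, and its summed level was 115 CPM in the PBS library and 68.9, 96.5 and 194 with oxaliplatin, so that the control lay within the treated range. PCYT1B, its paralogue, was at 0.05 ± 0.33, and its sgRNA_3562 was the most abundant member of oxaliplatin replicate 1 with 75786 counts, where the control had 3302 and replicates 2 and 3 had 2905 and 2875. Another, sgRNA_3563, was among the 5 highest well-counted members, with 1518 counts against 21801, 6602 and 4535. PCYT2, for ethanolamine, was at -0.35 ± 0.82. PEMT was at 0.74 ± 0.61, and its sgRNA_3777 was the most abundant member of replicates 2 and 3, with 4237 counts in the control and 33603, 16553 and 13593 with the drug. Of the 2 phosphotransferases, CEPT1 had 1 sgRNA among those more than 4-fold lower throughout, sgRNA_3774, which went from 688 counts to 49, 67 and 135.

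The branch that groups the enzymes of CDP-diacylglycerol, phosphatidylserine, mitochondrial phosphatidylethanolamine and cardiolipin had the lowest median, -1.63 relative to that of all genes. Most of this came from 1 library. The branch median was -3.06 in oxaliplatin replicate 1, -0.45 in replicate 2 and -0.67 in replicate 3, and -0.49 without replicate 1. Of the 21 well-counted sgRNAs, 16 were more than 4-fold below the median well-counted sgRNA in replicate 1 (76.2%, against 25.7% of all), 2 in replicate 2 (9.52%, against 9.14%) and 1 in replicate 3 (4.76%, against 3.93%). The 28 sgRNAs made up 0.405% of the counts in the PBS library and 0.204%, 0.307% and 0.305% in the oxaliplatin libraries. The 16 spanned CDS1, CDS2, PTDSS2, PISD, PGS1 and CRLS1. Only PTDSS1 had none, with 505, 774 and 889 counts in the control and 2079, 681 and 595 in replicate 1.

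PISD, the decarboxylase that makes phosphatidylethanolamine inside mitochondria, showed the split between libraries in all of its sgRNAs. They had 502, 543, 2875 and 6820 counts in the PBS library, the last being among its 3 most abundant members, and 30, 28, 419 and 271 in oxaliplatin replicate 1, although that library was sequenced most deeply. In replicate 2 the same sgRNAs had 817, 3721, 2055 and 1742 counts and in replicate 3 1642, 1977, 1996 and 2317. The gene value was -4.84, -0.21 and 0.09 in the 3 libraries. PGS1, which makes the first lipid of the cardiolipin pathway, was at -5.15, -1.56 and -1.20, and its sgRNA_3584 went from 982 counts to 0, 87 and 195. Its other sgRNAs had 1131, 1727 and 3165 counts in the control and 65, 63 and 233 in replicate 1, while in replicate 3 they had 538, 3039 and 2507. PTDSS2, a phosphatidylserine synthase, was at -5.53, -0.79 and -1.19, and cardiolipin synthase CRLS1 at -2.91, -0.79 and -0.57. All 4 genes were low in replicate 1 and much nearer to the library in the other 2.

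In replicate 1 the gene values of the CDP-diacylglycerol synthases were above those of PISD, PGS1, PTDSS2 and CRLS1. Most of their well-counted sgRNAs were nevertheless low there too. CDS1 was highest at 4.42 ± 2.18, with 3 sgRNAs at 0, 0 and 1 counts in the control, and its sgRNA_573 went from 1 to 23478, 121 and 227. Its well-counted sgRNA_576 had 364 counts in the PBS library and 16 in replicate 1, against 457 and 547 in replicates 2 and 3. CDS2, the widely expressed isoenzyme, was at -0.36 ± 0.97. Its sgRNAs were far apart in replicate 1, where sgRNA_3374 had 25521 counts (1165 in the control) and sgRNA_3373 had 39 (1888 in the control). Another of CDS2, sgRNA_3376, went from 247 counts to 1, 22 and 100, below the median well-counted sgRNA in every library. PTDSS1 was at -0.10 ± 0.32 and held the only call of the branch, sgRNA_3639, from 3 counts to 406, 910 and 1183. The SD of the branch median over the 3 libraries was 1.44, of the size of the median itself.

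Ceramide synthesis runs from serine palmitoyltransferase (SPTLC1 to SPTLC3) through KDSR and the ceramide synthases (CERS1 to CERS6) to the desaturases DEGS1 and DEGS2. The median of the 12 genes was -0.22 relative to that of all genes, at -0.0016, -0.33 and -0.43 in the 3 libraries, and -0.60 with well-counted sgRNAs. It was -0.044 without replicate 2 and -0.38 without replicate 1. Of 35 well-counted sgRNAs, 12 were more than 4-fold lower in oxaliplatin replicate 1 (34.3%), 8 in replicate 2 (22.9%) and 3 in replicate 3 (8.57%), beside 25.7%, 9.14% and 3.93% of all. The same 3, of CERS3, CERS6 and SPTLC3, were so in every library. CERS3, which makes the very long ceramides of skin, was lowest at -2.62 ± 0.71. Its sgRNA_6646 went from 941 counts to 1, 78 and 132, and its summed level from 257 CPM to 53.7, 43.5 and 76.3, below the control in all 3 libraries. CERS1, a synthase of C18 ceramide known from neurons, was at -2.49 ± 1.65, and its summed level went from 705 CPM to 95.9, 314 and 235. CERS2, a widely expressed synthase of very long ceramides, was at -1.22 ± 0.19, with 540 CPM against 89.6, 226 and 264. The well-counted sgRNAs of CERS2 were low in different libraries. Against the median well-counted sgRNA, sgRNA_4476 stood at -4.13, -0.019 and -0.00052 and sgRNA_4473 at -0.15, -2.34 and -1.93. The third, sgRNA_4474, stood at 0.15, -0.81 and -0.81. In these 3 ceramide synthases the control exceeded every treated library, also after median-ratio scaling. The edgeR adjusted p on summed counts was nevertheless 0.739 for each. After that scaling, 6 of the 12 genes of the branch were below 0 on summed counts in every library (50.0%, against 34.8% of all genes).

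The remaining ceramide synthases and the first enzymes were less uniform. CERS5 was highest at 2.18 ± 0.48, with 2 sgRNAs at 0 in the PBS library, while its summed level was 407 CPM there and 99.2, 193 and 307 with oxaliplatin. CERS6 held opposite sgRNAs: sgRNA_6694 went from 571 counts to 18, 24 and 55 (edgeR log2 fold change -4.13, adjusted p = 0.083), and sgRNA_6695 from 976 to 39185, 1733 and 1824. SPTLC1, the subunit required by every serine palmitoyltransferase, was at 1.69 ± 1.18, with a summed level of 602 CPM against 252, 190 and 316. SPTLC2 was at -0.66 ± 0.65 and KDSR at 0.42 ± 0.39. DEGS1, which places the double bond of ceramide, was at 0.00084 ± 1.19, and the paralogue DEGS2 held the second most abundant member of the control, sgRNA_6243, with 7393 counts against 11869, 4052 and 4479. The 3 calls were sgRNAs of CERS1, CERS4 and DEGS1 that the control lacked, with 2176, 693 and 449 counts for CERS1.

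Ceramide use and breakdown covers sphingomyelin synthases (SGMS1, SGMS2), ceramide glycosyltransferases (UGCG, UGT8), ceramidases (ASAH genes), sphingosine kinases (SPHK1, SPHK2) and the lyase SGPL1. It was the only branch with 0 calls among its 40 sgRNAs, although 17 of these had fewer than 10 counts in the control and 11 had an unadjusted p under 0.05 for a higher level. Without replicate 2 or without replicate 3 it had 2 calls (5.00%, against 8.61% and 4.89% of all). DESeq2 called 14 of them higher (35.0%, against 28.5%) and 0 lower. The median of the 10 genes was 0.91 above that of all genes, with -0.67, 1.50 and 1.79 in the 3 libraries, and -0.54 with well-counted sgRNAs, so that its sign changed with the sgRNAs counted. Leaving out replicates 1, 2 and 3 in turn gave 1.65, 0.49 and 0.26. Of 22 well-counted sgRNAs, 11 were below the median well-counted sgRNA in all 3 libraries (50.0%, against 28.7% of all). On counts summed per gene, 5 of the 10 genes were below 0 in every library (50.0%, against 34.8% of all genes).

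SGMS1, the Golgi sphingomyelin synthase, was lowest at -2.34 ± 1.06. Its sgRNAs had 312, 416, 1367 and 1850 counts in the PBS library and 77, 21, 2275 and 616 in oxaliplatin replicate 2, and in replicate 1 the third of these, sgRNA_6744, had 69229. SGMS2, its plasma membrane paralogue, was highest at 5.49 ± 2.14, with 3 sgRNAs at 0 or 1 counts in the control, and its well-counted sgRNA went from 2118 counts to 5465, 1747 and 1805. SPHK1, which makes sphingosine 1-phosphate, had 1510 counts or more for every sgRNA in the control. Its value was -1.15 ± 0.24, and its summed level was 1436 CPM against 629, 800 and 954. Set against the median well-counted sgRNA, however, its sgRNAs stood at -1.22, -0.080, 0.30 and 0.39 in the mean over libraries, on both sides of that median. SPHK2 was near it at -1.03 ± 0.49, with 691 CPM against 205, 243 and 402. For both kinases the control exceeded each treated library, as it did for UGT8 and UGCG.

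The acid ceramidase ASAH1 was at -0.10 ± 2.66, with 2 sgRNAs at 0 in the control. Its other sgRNAs went from 661 counts to 4, 54 and 136 and from 1601 to 298, 1225 and 1144, and its summed level from 253 CPM to 11.6, 126 and 122. ASAH2B was at 5.21 ± 1.30, with 3 sgRNAs at 0 in the PBS library and another that went from 264 counts to 4228, 227 and 244. SGPL1, which degrades sphingosine 1-phosphate irreversibly, was at 3.75 ± 0.86. Its sgRNAs had 0, 1, 30 and 492 counts in the control and 81, 219, 131 and 507 in oxaliplatin replicate 2, where the gain lay with the scarce ones. In replicate 1 they had 2117, 26, 260 and 3039, so that the well-counted sgRNA gained too. UGCG, which makes glucosylceramide, was at 1.10 ± 2.24, while its summed level was 823 CPM against 69.4, 356 and 409. In ASAH1 and UGCG the median over sgRNAs and the summed counts pointed different ways in replicates 2 and 3.

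Summed over its sgRNAs, each branch also held a share of each library. The choline and ethanolamine sgRNAs held 0.519% of the counts in the PBS library and 0.882%, 0.540% and 0.507% in the oxaliplatin libraries. The ceramide synthesis sgRNAs held 0.603% against 0.382%, 0.442% and 0.484%, and those of ceramide use and breakdown 0.464% against 0.489%, 0.260% and 0.293%. The control lay above all treated libraries for ceramide synthesis and for the CDP-diacylglycerol branch, and below all of them for 3 branches. These were the first acylations (0.359% against 0.621%, 0.517% and 0.486%), the lipin, DGAT and MOGAT branch (0.460% against 0.649%, 0.489% and 0.543%) and lysophospholipid acyltransferases (0.377% against 0.394%, 0.396% and 0.423%). In replicate 1 the single sgRNAs of AGPAT2 and AGPAT3 described above held 67433 and 63251 of the 171194 counts of the first acylations. The bounds of the 95% exact binomial intervals lay within 0.0051 percentage points of these shares and cover counting error only.

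How far the tests depended on oxaliplatin replicate 1 was seen by leaving it out. The edgeR common dispersion, the squared coefficient of variation beyond counting error, was 0.795 with all libraries and 0.111 without replicate 1. Without it, edgeR called 128 members higher (43.2%, against 38.2% of all sgRNAs) and 54 lower (18.2%, against 15.5%). On summed counts 11 of the 74 genes were called higher (14.9%, against 23.0% of all genes) and 14 lower (18.9%, against 18.6%). The lower genes were GPAT3, LPGAT1, PTDSS2, PISD, 5 of ceramide synthesis (CERS1, CERS2, CERS3, SPTLC1 and SPTLC3) and 5 of ceramide use and breakdown (UGCG, UGT8, SPHK1, SPHK2 and ASAH1). The higher genes were AGPAT1, AGPAT2, AGPAT4, MBOAT2, MBOAT7, DGKA, DGKE, DGKQ, PEMT, CDS2 and CERS6. The 2 ceramide branches thus held 10 of the 14 lower genes and 1 of the 11 higher ones. Called lower were 41.7% of the 12 genes of ceramide synthesis and 50.0% of the 10 of ceramide use and breakdown, against 18.6% of all genes. Called higher were 8.33% and 0% of them, against 23.0% of all genes. Examples are DGKQ, with an edgeR log2 fold change of 3.97 (adjusted p = 3.93e-28), and CERS3, with -2.04 (adjusted p = 1.53e-05). These p-values rest on the assumption that the lone control varies as little as oxaliplatin replicates 2 and 3, which were nearly alike.

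Further enzymes of lipid metabolism that the symbol rule leaves out, among them phospholipid phosphatases, sphingomyelinases, glycosphingolipid synthases, glycerol kinases and lipases, were set beside the members. Of 154 sgRNAs on these 39 genes, edgeR called 19 higher (12.3%, against 8.35% of all) and 0 lower, with 1 lower at an unadjusted p under 0.05 and 1 by DESeq2. Without replicate 3 it called 7 of them higher (4.58%, against 4.89%). Their median fold change was 0.09 above that of all genes, and 0.11 above with well-counted sgRNAs. Without oxaliplatin replicate 1, 11 of the 39 genes were called higher on summed counts (28.2%, against 23.0%) and 6 lower (15.4%, against 18.6%). A list of 9 member genes was meant as single-gene steps: KDSR, SPTLC1, PISD, PGS1, CRLS1, PCYT2, PEMT, SGPL1 and UGCG. SPTLC1, however, is a subunit that shares its step with SPTLC2 and SPTLC3. The 9 genes had a median 0.21 above that of all genes, against 0.29 for the other 65 members. With well-counted sgRNAs these medians were -0.54 and -0.075 relative to that of all genes. On summed counts 5 of the 9 were below 0 in every library (55.6%, against 29.2% of the other members and 34.8% of all genes). SPTLC1 was among these 5.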

How the data were processed

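Counts of sgRNA reads in genomic DNA of HCT116 cells were used as deposited. The authors made these counts from PCR-amplified reads with MAGeCK, as named in the submitters' processing notes, and the settings for matching reads to sgRNAs are not stated there. The table of the series and the 4 per-library files held equal values for 100% of sgRNAs. Reads carry no molecular identifiers, so intervals cover counting error only.

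Members were matched by symbol, and all 4 columns were mapped. Members and lists were chosen with earlier results of these data known. Median ratios, as MAGeCK computes them, put each oxaliplatin library on one scale with the PBS library; a pseudocount of 1 was added, sgRNAs at 0 in both were dropped, and a gene took its sgRNAs' median log2 fold change. sgRNAs with at least 10 counts in 1 or more libraries, and counts summed per gene, were tested with edgeR 4.0.16 (R 4.3.3; TMM, quasi-likelihood, Benjamini-Hochberg over all sgRNAs or genes, threshold 0.05), with DESeq2 1.42.0 as an alternative. Python 3.11.15 with pandas 2.3.3 and scipy 1.17.1 did the rest.

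Named genes were, per branch, the 2 lowest and 2 highest by mean log2 fold change, genes with at least 2 called sgRNAs, and 22 steps listed whatever their values. Named single sgRNAs were the 5 lowest and 5 highest with 100 or more control counts and the 3 most abundant of each library; other sgRNAs were picked with their values in view. Alternatives concerned scaling, pseudocount, count minimum, summary, tool and libraries. Comparing well-counted sgRNAs with their own median, and a floor of 3 counts, were added after seeing the data. The edgeR test and the gene fold changes were tried on simulated data with 200 changed features, without these additions.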

Additional observations from a re-analysis of the deposited data

How the results depend on the processing

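Of the calls, the 24 member sgRNAs higher with oxaliplatin became 0 with total counts, 92 with DESeq2 and 0 among sgRNAs with 100 or more control counts, a minimum that removes all 24 before the test. Leaving out 1 treated library at a time gave 13 to 128 of them. The 0 lower members became 1 with DESeq2 and 0 to 54 with a library left out. On summed counts, the 0 genes higher became 2 and the 0 lower became 1 with DESeq2, and 0 to 11 and 0 to 14 with a library left out. The largest counts came without oxaliplatin replicate 1, and the 13 without replicate 3. DESeq2 size factors in edgeR and no filter on low counts left all counts within 1.5 times.

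Of the medians relative to all genes, that of all members (0.26) became -0.10 with at least 100 control counts and 0.36 with a floor of 3 counts, and lay between 0.20 and 0.30 with a library left out. With at least 100 control counts, the first acylations gave 0.13, lysophospholipid acyltransferases 0.64, choline and ethanolamine 0.14, ceramide synthesis -0.60 and ceramide use -0.54. With summed counts, the first acylations gave 0.068, choline and ethanolamine 0.26 and ceramide synthesis -0.49. A pseudocount of 10 gave 0.82 and a floor of 3 counts 1.12 for choline and ethanolamine. TMM moved the median of all genes from 0.20 to 0.79 but no branch relative to it by more than the spread between libraries. The causes were not tested. No paired analysis was possible because the control is 1 library without a replicate number. The control, at 8934799 counts with 22.3% of members at 0, limits the depth of every fold change.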
